A study of Mus musculus with 11 samples.

Results

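Smr3a and Prol1 encode small secreted proteins of the salivary and lacrimal glands, and their transcripts were followed here in 11 mouse mammary tumours. They were taken by gene symbol, which gave 4 probes, 2 for Smr3a and 2 for Prol1, among 45281 probes and 2 of 19057 genes with a probe of a single symbol. All tumours came from female mice of 12 weeks: 6 from PyMT mice, which carry the polyoma middle T oncogene and form mammary tumours on their own, and 5 from PyMT/SIRT6 mice, which carry in addition a Sirt6BAC allele that overexpresses functional SIRT6 protein. PyMT was thus shared by both groups. Which promoter drives middle T is not stated in the labels. Each tumour gave 1 array of the Illumina WG-6 v2.0 mouse design, and the labels do not say whether each came from a different mouse, so every p-value measures the spread between these samples. Both genes were picked from measured intensities of these arrays, with the genotype comparison and the spread between tumours already known, so their genotype differences are described without a test. The permutation p-values of their relations use that same spread and are to be read as descriptions.

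Smr3a belongs to the submaxillary gland androgen-regulated proteins, a family of proline-rich secreted precursors first described in the mouse submandibular gland. Prol1, also listed as Muc10, encodes a mucin-like, proline-rich secretory product of the submandibular and lacrimal glands, and the human gene of that name encodes the precursor of opiorphin, a peptide that inhibits the peptidases neprilysin and aminopeptidase N. Both genes lie on chromosome 5 next to the caseins, the calcium-binding milk proteins of lactating mammary epithelium, which prolactin switches on through the transcription factor STAT5. The caseins and the salivary precursors are thought to descend from a common ancestor of secretory calcium-binding proteins. By RefSeq (assembly GRCm38.p6), 2 genes separate Csn3 (kappa-casein) from Smr3a, 6 separate Smr3a from Prol1, and 12 separate Csn2 (beta-casein) from Smr3a.

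The 250 bases before the transcription start are shown for both genes and for Csn2, because the question is whether the neighbours follow the casein. They are RefSeq sequences of GRCm38.p6, read 5′ to 3′ on each gene's own strand: chr5:88002275-88002524 (plus strand) for Smr3a, chr5:88317062-88317311 (plus strand) for Prol1 and chr5:87699426-87699675 (minus strand) for Csn2. Capitals mark matches to TTCNNNGAA, the general STAT recognition pattern, which reads the same on both strands.
Smr3a: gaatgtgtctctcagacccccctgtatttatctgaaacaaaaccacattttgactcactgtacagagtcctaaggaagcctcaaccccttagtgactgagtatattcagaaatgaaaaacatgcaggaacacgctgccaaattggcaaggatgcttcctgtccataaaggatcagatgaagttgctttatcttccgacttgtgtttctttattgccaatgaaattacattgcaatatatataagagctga
Prol1: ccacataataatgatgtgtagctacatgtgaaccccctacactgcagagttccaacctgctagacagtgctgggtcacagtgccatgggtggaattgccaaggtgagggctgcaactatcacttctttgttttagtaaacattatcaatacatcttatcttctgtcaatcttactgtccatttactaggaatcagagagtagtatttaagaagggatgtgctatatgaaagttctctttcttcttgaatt
Csn2: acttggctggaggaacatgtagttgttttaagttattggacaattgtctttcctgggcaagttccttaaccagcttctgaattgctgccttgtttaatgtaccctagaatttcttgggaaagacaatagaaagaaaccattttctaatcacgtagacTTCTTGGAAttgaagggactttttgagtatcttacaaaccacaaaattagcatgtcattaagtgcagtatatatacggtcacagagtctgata
The Csn2 window held 1 match, TTCTTGGAA, starting 93 bases before the start site, and the Smr3a and Prol1 windows held 0. Of 32851 mouse windows of this length, 7.02% held at least 1 match. The androgen and glucocorticoid receptor half-site AGAACA, searched on both strands and present in 16.1% of windows, and TATAAA, also on both strands and present in 12.4%, had 0 matches in all 3 windows. Smr3a has a further transcript model that starts upstream, so the window covers 1 of its starts. These are descriptions of letters in short windows and do not speak to factor binding.

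Prol1 separated the genotypes completely, with the PyMT/SIRT6 tumours brighter. On the brighter probe, ILMN_2623234, the PyMT arrays ran from 7.26 to 8.04 on the log2 intensity scale, with a median of 7.65. The PyMT/SIRT6 arrays read 11.59, 9.59, 8.64, 8.81 and 8.45 for replicates 1 to 5, a numbering that follows deposit order only. The groups did not overlap, and replicate 1 lay far above the rest. PyMT tumours averaged 7.68 ± 0.28 (SD, n = 6) and those with extra Sirt6 9.42 ± 1.29 (SD, n = 5), a difference of 1.74 ± 0.45 (limma SE) or 3.34-fold. Without PyMT/SIRT6 replicate 1 the difference was 1.19, still without overlap.

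The second Prol1 probe, ILMN_1247393, gave the same order of groups. Its PyMT arrays ran from 7.04 to 7.71 and its PyMT/SIRT6 arrays read 11.01, 9.16, 8.23, 8.26 and 8.05. Over the 11 arrays the probes had a Pearson r of 0.997, and 0.992 without PyMT/SIRT6 replicate 1, so both reported the same pattern. As background, 0.292% of 14726 tested features had every PyMT/SIRT6 array above every PyMT array, and 0.143% were higher by 1 log2 unit or more; since the gene was chosen with this comparison known, nothing is read from its place among them.

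Smr3a stood high in a single tumour of each genotype. On the brighter probe, ILMN_2685073, PyMT arrays ran from 7.29 to 9.42 with a median of 7.86, and replicate 6 was the highest. The PyMT/SIRT6 arrays read 12.30, 8.20, 8.07, 8.02 and 7.42. In intensity units PyMT/SIRT6 replicate 1 was at 5047 and PyMT replicate 6 at 687, against 156 to 317 in the other 9 tumours. The genotypes overlapped, with means of 8.01 ± 0.81 (SD, n = 6) and 8.80 ± 1.98 (SD, n = 5) and a difference of 0.79 ± 0.73 (limma SE). Without PyMT/SIRT6 replicate 1 it was −0.08, so the sign rested on that array.

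The second Smr3a probe, ILMN_3125207, was dim, between 7.17 and 7.49 in 10 tumours, and reached 9.00 only in PyMT/SIRT6 replicate 1. PyMT replicate 6 was again the highest of its group, at 7.49. Its r with the first probe was 0.962, and 0.945 without PyMT/SIRT6 replicate 1. All 4 probes of the 2 genes had a mean above the lower limit for testing, 7.31 on the log2 scale, and the brighter probe of each gene entered the fit over all features. ILMN_3125207, with a PyMT mean of 7.28, was above that limit only through PyMT/SIRT6 replicate 1. In whole tumours, more cells of a type and more RNA per cell cannot be told apart.

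**Figure D1:**
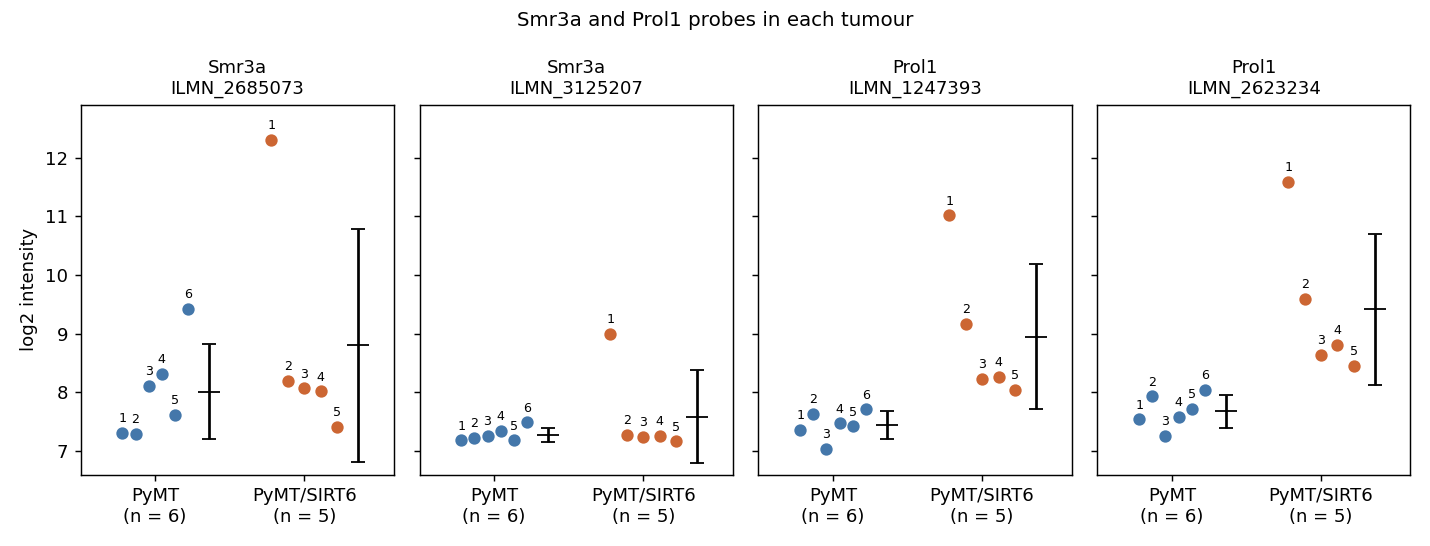
Log2 intensity of each Smr3a and Prol1 probe in 6 PyMT and 5 PyMT/SIRT6 tumours; each point is a tumour with its replicate number, and the black bars give the mean and SD. Both Prol1 probes separate the genotypes, whereas Smr3a is at 12.30 in PyMT/SIRT6 replicate 1, at 9.42 in PyMT replicate 6 and lower elsewhere.

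PyMT/SIRT6 replicate 1 stood apart for salivary gland genes as a group, and the results that rest on it are given with and without it. Of 54 listed salivary gland genes other than Smr3a and Prol1, 40 had a probe and 24 passed the intensity limit. This tumour was the highest of all 11 for 12 of the 24 (50%), while it was the highest for 5.66% of all tested features. Of these, Prpmp5, Klk1b5 and Klk1b21 passed the intensity limit only through this tumour, and without them it was the highest for 9 of 21. Its mean over the 24 genes was 9.80, against 8.16 to 8.86 in PyMT tumours and 8.46 to 9.01 in the other PyMT/SIRT6 tumours. In skeletal muscle markers it was one of 4 arrays above a list mean of 9 (the others were PyMT replicate 5 and PyMT/SIRT6 replicates 4 and 5). Markers of simple epithelium, which mammary and salivary glands share, were bright in all tumours, with Krt8 between 12.23 and 13.40 and Krt18 between 11.04 and 12.00, while the Epcam probe stayed at 7.15 to 7.35.

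The salivary genes highest in this tumour were mostly secreted products. Bpifa2, the parotid secretory protein, read 14.11 there and 11.56 in PyMT replicate 6, against a PyMT median of 8.45. The demilune and parotid protein Dcpp1 read 11.27, Mucl2, a mucin-like protein, 10.25, and the cystatin Cst10 10.47. Salivary amylase, Amy1, read 9.26 and tissue kallikrein, Klk1, 9.32, where no other tumour exceeded 7.99 and 7.68. Other listed genes were not specific to it. Scgb2b27, a secretoglobin, was at 12.11 to 14.86 in all tumours, the water channel Aqp5 at 12.49 to 14.06, and Pip, the prolactin-inducible protein, ranged from 7.66 to 13.43 with its maximum in PyMT/SIRT6 replicate 3.

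Not every salivary gene passed the intensity limit. The 16 listed genes with a probe that fell under the limit included Smr2, the paralogue of Smr3a in the same gene interval, at 7.14 to 7.29 in all tumours. Carbonic anhydrase 6, Car6, was likewise at 7.10 to 7.28. Dcpp3, also under the limit, nevertheless read 8.19 in PyMT/SIRT6 replicate 1 and 7.49 in PyMT replicate 6. Klk1b22 and Smgc, under it too, were highest in PyMT/SIRT6 replicate 1, at 7.68 and 7.66. Kallikrein Klk1b genes are near-identical copies, so their probes may read each other's transcripts and are uncertain as single genes.

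**Figure D2:**
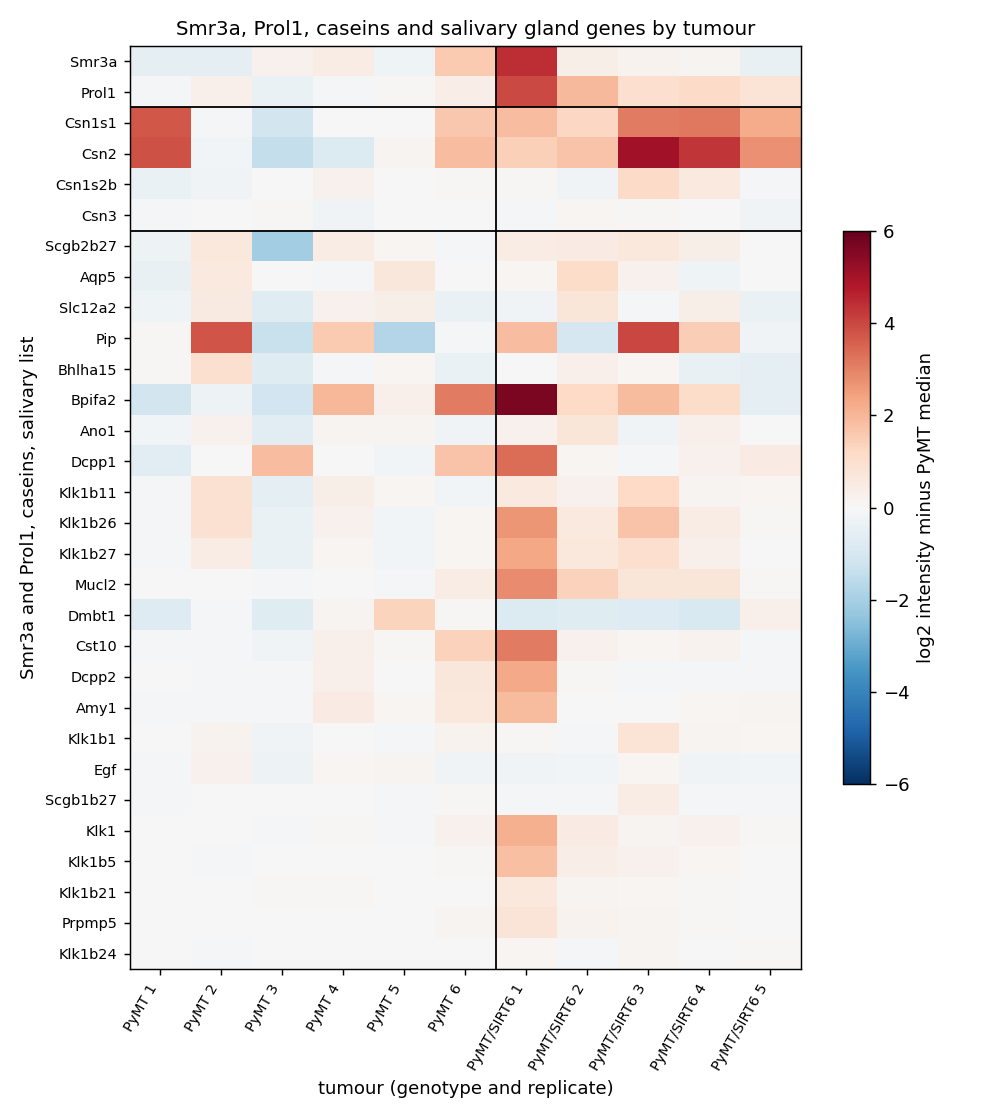
Log2 intensity minus the PyMT median for Smr3a and Prol1 (top), the 4 tested caseins (middle) and the 24 tested salivary gland genes (bottom) in each tumour; red is above and blue below that median. Smr3a, Prol1 and salivary genes such as Bpifa2 and Cst10 peak in PyMT/SIRT6 replicate 1, whereas the peaks of Csn2 are PyMT/SIRT6 replicates 3 and 4 together with PyMT replicate 1.

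Smr3a and Csn2 peaked in different tumours. Csn2 read 12.46, 8.48, 7.23, 7.83, 8.83 and 10.50 in PyMT replicates 1 to 6 and 10.08, 10.36, 13.68, 12.96 and 11.40 in PyMT/SIRT6 replicates 1 to 5. The tumour with the most Smr3a was therefore the lowest of the PyMT/SIRT6 group for Csn2, and PyMT replicate 1, high in Csn2, had Smr3a at 7.31. Across the 11 tumours Pearson's r of Smr3a with Csn2 was −0.0632 (permutation p = 0.874, adjusted 0.987 over 99 relations) and Spearman's rho −0.191 (permutation p = 0.575, adjusted 0.839). It was −0.0771 without the 2 tumours farthest from the Csn2 median, −0.0599 without PyMT/SIRT6 replicate 1 and −0.0471 within the PyMT group (n = 6, exact permutation p = 0.921). Csn2 came 7922nd of 14725 features ordered by their r with Smr3a.

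The other caseins gave r with Smr3a between −0.00537 for Csn3 and 0.0931 for Csn1s2b, an alpha-S2-like casein. Csn3 was near the top of the scale in every tumour, at 14.83 to 15.18, which leaves little room for variation. Csn1s2b had a rho of 0.555 with Smr3a (permutation p = 0.0827, adjusted 0.303). Within PyMT tumours its r was 0.646 (n = 6, exact permutation p = 0.16) and its rho 0.886, where the rho of Bpifa2 and of Cst10 with Smr3a was 0.600 each. Csn1s2a stayed at 7.19 to 7.31 and was not tested. A wide range of relations remains possible with 11 tumours, and these p-values do not show that Smr3a and the caseins were unrelated.

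Smr3a varied with several salivary genes, over all tumours and within the PyMT group. It was picked with its spread between tumours known, which the permutations below use. With Bpifa2 its r was 0.900 (permutation p = 2.5e-04, adjusted 0.00619) and its rho 0.764 (permutation p = 0.00864, adjusted 0.106). The r was 0.807 without PyMT/SIRT6 replicate 1 and 0.822 in PyMT tumours alone (n = 6, exact permutation p = 0.0333). It was 0.933 without the 2 tumours farthest from the Bpifa2 median, PyMT/SIRT6 replicate 1 and PyMT replicate 3, which kept PyMT replicate 6 in. With Bpifa2, leaving out PyMT replicate 6 was therefore not tried together with PyMT/SIRT6 replicate 1. With Cst10 the r was 0.980 over all tumours (permutation p = 2e-04, adjusted 0.00619), 0.895 without PyMT/SIRT6 replicate 1 and 0.896 in PyMT tumours (exact permutation p = 0.0347). It was 0.678 without both PyMT/SIRT6 replicate 1 and PyMT replicate 6, the tumours farthest from the Cst10 median. Prpmp5, a proline-rich protein, gave 0.959 (permutation p = 7.2e-04, adjusted 0.0119), 0.750 without the array and 0.985 in PyMT tumours (exact permutation p = 0.00139), although its probe was dim. PyMT replicate 6 was the highest PyMT tumour for Smr3a, Bpifa2, Cst10, Dcpp2 and Amy1.

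Of the 24 tested salivary genes 11 had an r of 0.7 or more with Smr3a, where 0.713% of all tested features did. This includes Prpmp5, Klk1b5 and Klk1b21, which passed the intensity limit only through PyMT/SIRT6 replicate 1, the array where Smr3a peaks, and the count was 8 of 21 when they were left out. Without PyMT/SIRT6 replicate 1 there were 5 of 24, against 0.686% of features, namely Bpifa2, Cst10, Dcpp2, Prpmp5 and Amy1. That was 4 of 21 without the 3 genes that passed through this array. Leaving out PyMT replicate 6 as well took Cst10 to 0.678, Dcpp2 to 0.415 and Amy1 to 0.398, so those 3 rested in part on that tumour. For Bpifa2 and Prpmp5 this pair of tumours was not left out, so whether they rested on PyMT replicate 6 too was not tested. The median r over the list went from 0.517 to 0.0774 without PyMT/SIRT6 replicate 1, beside −0.0333 and −0.00231 over all features. No casein (0 of 4) and no other milk or secretory gene (0 of 18) reached 0.7 in either case. Genes with an r near 0 included Aqp5 (−0.0493), Pip (0.119) and Scgb2b27 (0.111), which were bright in most tumours. Tumours are the points throughout, and the arrays share their quantiles.

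With the mean of all 24 salivary genes Smr3a had an r of 0.818 (permutation p = 0.0166, adjusted 0.082) and a rho of 0.409 (permutation p = 0.213, adjusted 0.556). The r was 0.474 without the 2 tumours farthest from the median, 0.321 without PyMT/SIRT6 replicate 1 and 0.290 in PyMT tumours (exact permutation p = 0.596). The relation with the list mean therefore rested on that tumour. Whether the relation to salivary genes differed from that to Csn2 was not tested.

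The closest partner of Prol1 on the salivary list was Mucl2, which read 7.46, 7.42, 7.35, 7.42, 7.37 and 7.88 in PyMT tumours and 10.25, 8.80, 8.16, 8.16 and 7.51 in PyMT/SIRT6 tumours. The same 2 tumours, PyMT/SIRT6 replicates 1 and 2, were highest for both genes. The r was 0.976 (permutation p = 9e-05, adjusted 0.00619) and the rho 0.900 (permutation p = 4.6e-04, adjusted 0.0455). It was 0.916 without PyMT/SIRT6 replicate 1, 0.824 without the 2 tumours farthest from the Mucl2 median and 0.665 in PyMT tumours (n = 6, exact permutation p = 0.172). Prol1 was chosen with its genotype difference known, which these permutations over all tumours use. With genotype means removed the r was 0.967, and 0.845 without PyMT/SIRT6 replicate 1 as well, both given without a test.

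Kallikreins came next. Klk1 had an r of 0.932 with Prol1 (permutation p = 2.1e-04, adjusted 0.00619) and 0.858 without PyMT/SIRT6 replicate 1, with 0.525 in PyMT tumours (n = 6, exact permutation p = 0.304). With genotype means removed it was 0.966, and 0.802 without that array as well. The PyMT means of Klk1 (7.23) and Klk1b5 (7.18) were under the intensity limit of 7.31. Both were therefore tested only through PyMT/SIRT6 tumours, where Prol1 was high. Permutations over all tumours again use the genotype difference of Prol1. Klk1b5 gave 0.922 with Prol1, 0.805 without the array, 0.580 without the 2 tumours farthest from its median and 0.164 in PyMT tumours (n = 6, exact permutation p = 0.811). Klk1b27 had an r of 0.917 (permutation p = 0.00105, adjusted 0.0141) and 0.711 without it. The genes that stayed with Smr3a without that array had lower r with Prol1 in its absence, a difference that was not tested. The r of Bpifa2 went from 0.752 to 0.357, that of Cst10 from 0.784 to 0.130 and that of Dcpp2 from 0.768 to −0.142. That of Amy1 went from 0.758 to −0.0240 and that of Prpmp5 from 0.917 to 0.684. With genotype means removed and without that array they were 0.459, 0.503, 0.442, 0.203 and 0.619, in the same order. In all, 11 of 24 salivary genes reached an r of 0.7 with Prol1, where 0.727% of features did, or 8 of 21 without the 3 genes that passed the intensity limit through PyMT/SIRT6 replicate 1. Without that array 4 of 24 did so, where 0.91% of features did: Mucl2, Klk1, Klk1b5 and Klk1b27. It was 3 of 21 when the 3 genes were left out. Among the 19 genes whose PyMT mean passes the limit, which leaves out Klk1 and Klk1b5, 7 reached it, and 2 without that array. With the salivary list mean Prol1 had an r of 0.850 (permutation p = 0.00408, adjusted 0.0337) and a rho of 0.664 (permutation p = 0.0309, adjusted 0.17). The r was 0.359 without the 2 tumours farthest from the median, 0.527 without PyMT/SIRT6 replicate 1 and 0.849 in PyMT tumours (exact permutation p = 0.0375), so over all tumours it rested on the most extreme ones.

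**Figure D3:**
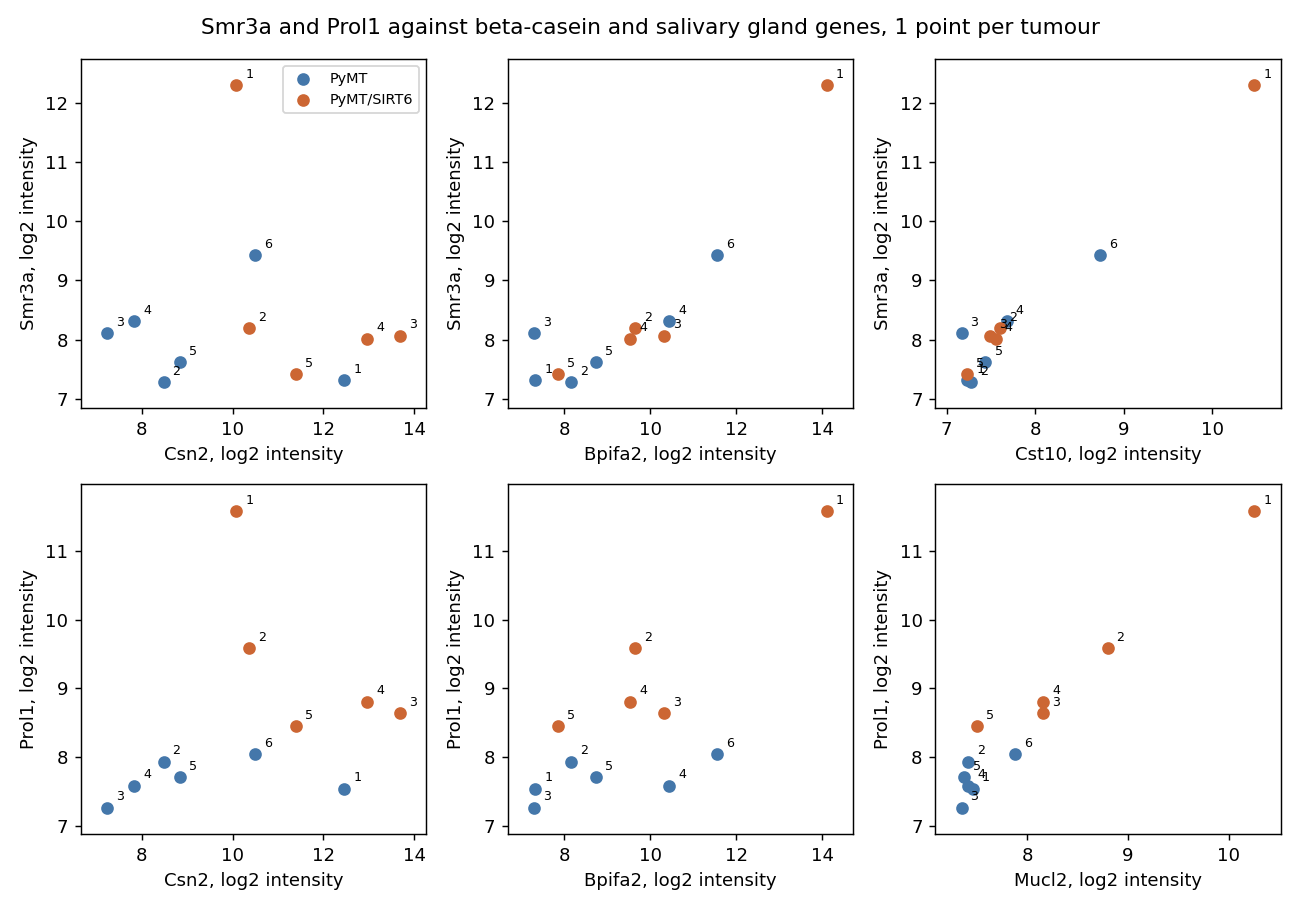
Smr3a (top row) and Prol1 (bottom row) against Csn2, Bpifa2 and the closest salivary partner (Cst10 for Smr3a, Mucl2 for Prol1), all as log2 intensity with 1 point per tumour and its replicate number. Over all 11 tumours neither gene lines up with Csn2, Smr3a lines up with Bpifa2 and Cst10 (r = 0.900 and 0.980), and Prol1 lines up with Mucl2 (r = 0.976). Without PyMT/SIRT6 replicate 1 the r of Smr3a was −0.0599 with Csn2, 0.807 with Bpifa2 and 0.895 with Cst10. That of Prol1 was then 0.531 with Csn2 and 0.916 with Mucl2.

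Prol1 and Csn2 were both higher on average in PyMT/SIRT6 tumours, but their order among tumours differed. Csn2 was highest in PyMT/SIRT6 replicate 3, where Prol1 was at 8.64, and PyMT replicate 1 combined Csn2 at 12.46 with Prol1 at 7.54. The r of Prol1 with Csn2 was 0.255 (permutation p = 0.474, adjusted 0.841) and the rho 0.464 (permutation p = 0.154, adjusted 0.424). It was 0.131 without the 2 tumours farthest from the Csn2 median, 0.531 without PyMT/SIRT6 replicate 1 and 0.280 in PyMT tumours (n = 6, exact permutation p = 0.594). With the genotype means removed it was −0.352 (permutation p = 0.298), and −0.114 without PyMT/SIRT6 replicate 1 as well, given without a test. Without PyMT/SIRT6 replicate 1 the r of Prol1 with the salivary list mean was 0.527, close to its 0.531 with Csn2. The PyMT/SIRT6 group, with 5 tumours, was too small for a correlation of its own. The other caseins had r between 0.0579 for Csn3 and 0.301 for Csn1s1, alpha-S1-casein, and 0 of 4 reached 0.7 with or without the array.

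Smr3a and Prol1 had the same highest tumour, PyMT/SIRT6 replicate 1. Their r was 0.786 over all 11 tumours (permutation p = 0.0314, adjusted 0.141), with a rho of 0.345 (permutation p = 0.298, adjusted 0.604). Without PyMT/SIRT6 replicate 1 it was 0.114, without the 2 tumours farthest from the Prol1 median 0.0392, and in PyMT tumours 0.298 (n = 6, exact permutation p = 0.565). The relation rested on PyMT/SIRT6 replicate 1. PyMT/SIRT6 replicate 2 illustrates the split, with the second highest Prol1 (9.59) and Smr3a at 8.20, below PyMT replicates 4 and 6.

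**Figure D4:**
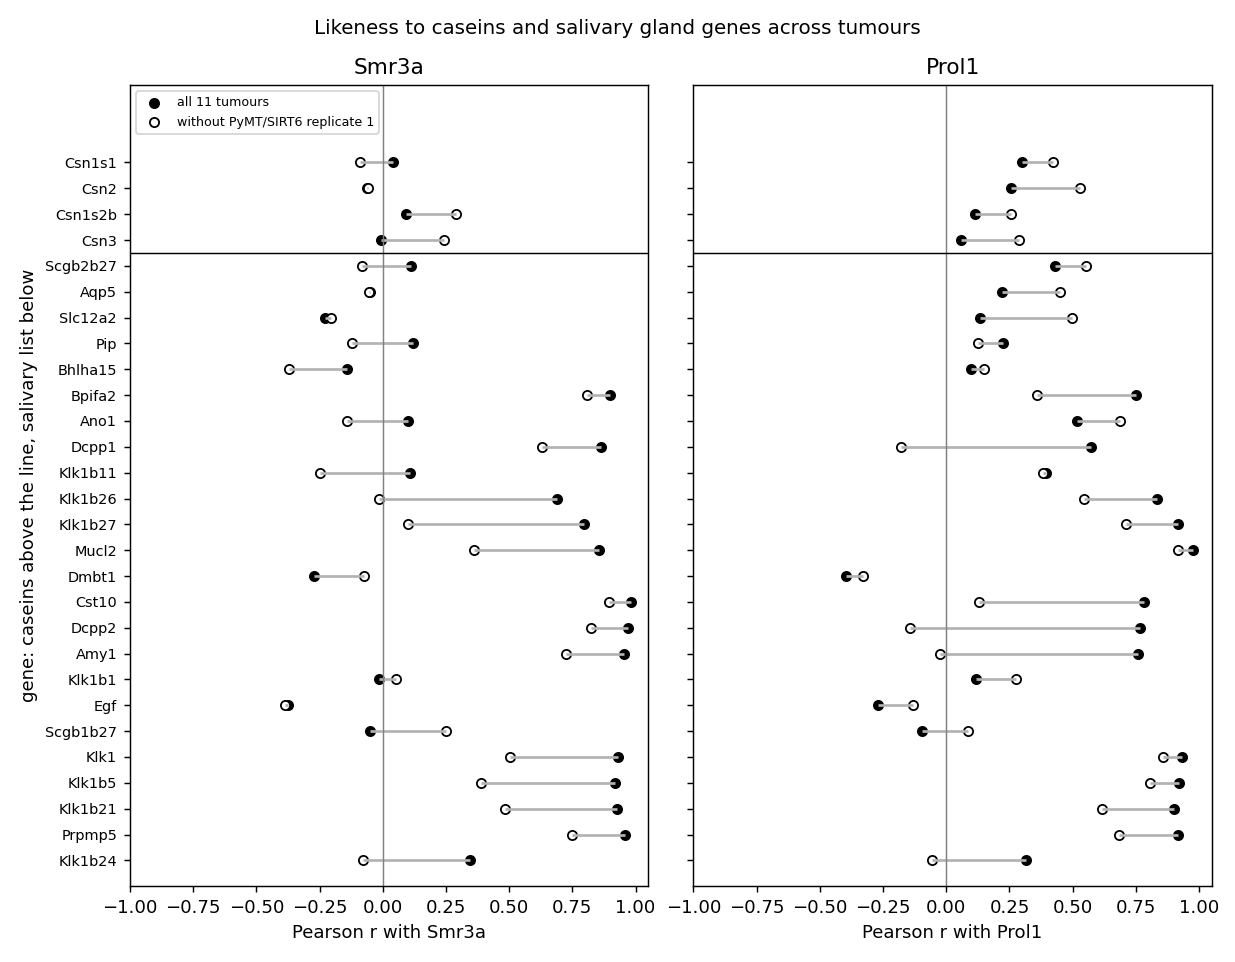
Pearson's r of each tested casein (above the line) and salivary gland gene (below it) with Smr3a and with Prol1; filled points use all 11 tumours and open points leave out PyMT/SIRT6 replicate 1. The open points of Cst10, Bpifa2 and Dcpp2 lie at 0.807 or more with Smr3a, those of Mucl2, Klk1 and Klk1b5 at 0.805 or more with Prol1, and no casein exceeds 0.531. Dcpp2 falls to 0.415 with Smr3a when PyMT replicate 6 is also left out.

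A search over all tested features pointed to the same gene classes when all tumours were used. The 10 genes with the highest r with Smr3a were Cst10, the acidic chitinase Chia1 (0.975), Dcpp2, the secreted nuclease Dnase1 (0.968), Prpmp5, Amy1, the pancreatic-type amylase Amy2a5 (0.943), Cks1brt, Klk1 and Klk1b21, of which 6 are on the salivary list. Chia1 read 12.03 in PyMT/SIRT6 replicate 1, 9.80 in PyMT replicate 6 and 8.40 in PyMT replicate 4, with an r of 0.917 when the first was left out. For Prol1 they were Mucl2, Klk1, Klk1b5, Klk1b27, Prpmp5, Gpsm3, Klk1b21, the chymotrypsin-like protease Ctrl (0.897), Wasf1 and Tle2, again with 6 of 10 on the list. The list makes up 0.163% of the features compared. The counts of 6 are not to be read against that share. Prpmp5, Klk1, Klk1b21 and Klk1b5 passed the intensity limit only through the PyMT/SIRT6 tumours, where Smr3a and Prol1 have their highest array.

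Without PyMT/SIRT6 replicate 1 the nearest genes changed. Only Cst10 of the salivary list stayed among the 10 nearest to Smr3a, where most others were dim probes such as Sult1d1 (0.912), Prelid1 (0.904) and Nkain2 (0.870) and the brightest were Cers5 (0.860) and Echdc2 (0.851). Mucl2 and Tle2 (0.873) stayed among the 10 nearest to Prol1, and Sirt6 itself (0.918) and genes of the same chromosome as Sirt6 and Tle2 joined, namely Gna11 (0.947), Tle5 (0.913) and Tle6 (0.865). In Sirt6, Gna11, Tle5, Tle2 and Tle6 every PyMT/SIRT6 array lay above every PyMT array, and within PyMT tumours their r with Prol1 ran from −0.253 for Tle6 to 0.331 for Gna11. Tesc, a calcium-binding protein, was at 0.959, and 0.763 in PyMT tumours. Its PyMT/SIRT6 arrays also all lay above its PyMT arrays, at 8.10 or more against 7.90 or less.

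The genes around Smr3a and Prol1 were mostly near the floor or steady between genotypes. Within 10 places of either gene 28 genes are annotated, of which 17 had a probe and 7 passed the intensity limit, both members included. Among the 5 other tested genes 0 passed in limma at an adjusted p of 0.05 and 0 at an unadjusted p of 0.05, where 0.0136% of all features were called higher and 4.43% had an unadjusted p under 0.05. The casein Csn1s2b differed by 0.34 ± 0.22 (limma adjusted p = 0.983), Amtn, an enamel protein of the same ancestral family, by 0.09 ± 0.19, and the RNA-binding protein gene Grsf1 by −0.08 ± 0.11. Smr2, Cabs1, Ambn, Enam and Jchain lay between 7.09 and 7.35 in all tumours. Amtn, the next gene after Prol1, had an r of −0.135 with it, and Csn1s2b had 0.113.

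**Figure D5:**
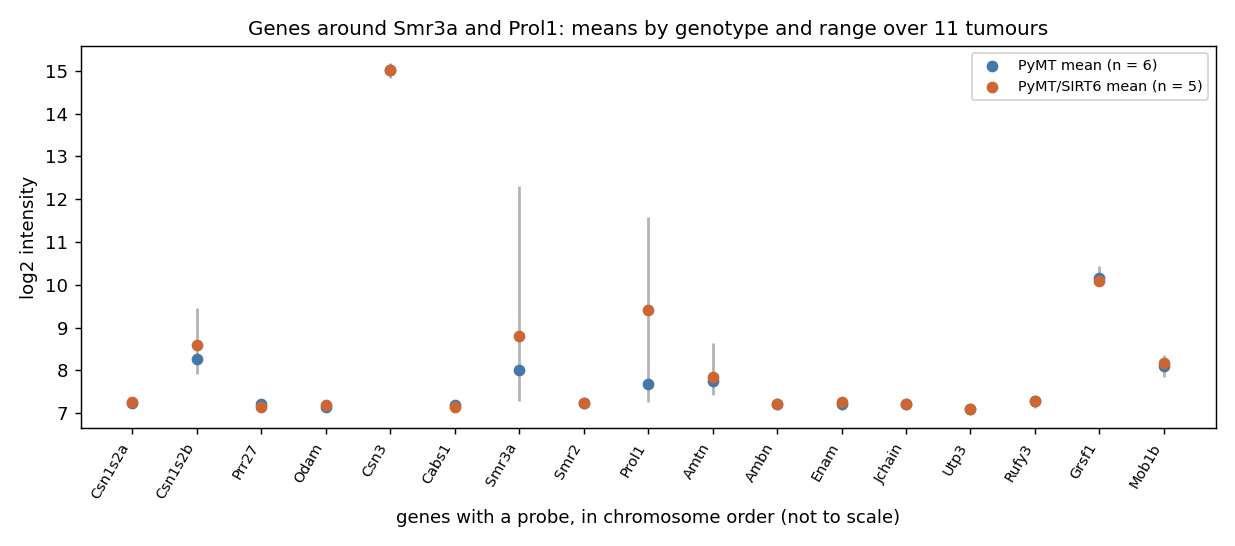
Log2 intensity of the 17 genes with a probe around Smr3a and Prol1 in chromosome order; points are genotype means (6 PyMT and 5 PyMT/SIRT6 tumours) and grey lines span the lowest to the highest tumour. Smr3a and Prol1 have the widest ranges, while Smr2, between them, stays at 7.14 to 7.29.

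Genes that act with the caseins or with the Prol1 product were compared between genotypes on the whole table. Of 24 tested salivary genes 21 had a higher and 3 a lower mean in PyMT/SIRT6 tumours. In limma over all features 0 passed and 3 had an unadjusted p under 0.05, where 4.43% of all features did. For Klk1, Klk1b5, Klk1b21, Klk1b24 and Prpmp5 the direction was fixed by the intensity limit, which their PyMT means miss, and among the other 19 genes 16 were higher and 3 lower. The median difference of the 24 was 0.30, beside −0.01 over all features, and Mucl2 had 1.09 ± 0.36 (limma adjusted p = 0.983). Without PyMT/SIRT6 replicate 1, 17 were higher and 7 lower with a median of 0.16, Mucl2 differed by 0.67, and Cst10 (0.48 with the array) by −0.12. Among the 19 genes whose PyMT mean passes the limit, 12 were then higher and 7 lower, with a median of 0.18. Of 4 tested caseins 3 were nominally higher and 0 passed, with 2 at an unadjusted p under 0.05, Csn2 at 2.47 ± 0.90 and Csn1s1 at 1.62 ± 0.71 (limma adjusted p = 0.983 for each). The prolactin and STAT5 list gave 4 higher and 6 lower of 10, with 0 at an unadjusted p under 0.05 and 0 passing. The list means of that pathway had r of 0.0785 with Smr3a and 0.229 with Prol1.

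The peptidases that opiorphin-type peptides inhibit were measurable. Anpep, aminopeptidase N, lay between 9.59 and 11.08, and Mme, neprilysin, between 7.59 and 8.22. Of the 4 tested genes of this list 1 was nominally higher and 3 lower in PyMT/SIRT6 tumours, with 0 passing in limma and 0 at an unadjusted p under 0.05. Their r with Prol1 lay between −0.363 and 0.172.

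Markers of other tissue were set beside both genes. The basal and myoepithelial list mean had an r of −0.649 with Prol1, with or without PyMT/SIRT6 replicate 1, and −0.463 with Smr3a, or −0.296 without that array. For skeletal muscle the r with Prol1 was 0.230, and 0.111 without the array, and the r with Smr3a turned from 0.0738 to −0.271. For epidermis the r with Prol1 was −0.311, and −0.428 without the array, and the r with Smr3a turned from −0.0139 to 0.169. For adipocytes the values were −0.179 and −0.107, and for luminal epithelium 0.0447 and −0.138, for Prol1 and Smr3a. The part of any of these tissues in the levels of Smr3a and Prol1 was not tested.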

How the data were processed

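Tumour RNA was converted to biotinylated cRNA and measured on Illumina WG-6 v2.0 mouse arrays, per the labels' protocols. Deposited values are linear intensities, 1 per probe. How the authors treated background and normalized them is not stated in the labels. The arrays already shared their quantiles, with medians of 157.5 to 157.6 and a floor near 117, so none was rescaled. Without background subtraction, changes of dim probes are understated.

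Intensities were put on the log2 scale. The probe of highest mean stood for each gene, and the lower 50% of 29453 features were left out, which left 14726. The genotype fit used R 4.3.3 with limma 3.58.1 (lmFit, eBayes with trend), with Benjamini-Hochberg adjustment over all tested features. Relations across tumours used two-sided permutation tests with 100000 resamples, or all 720 orders for 6 arrays, adjusted over 99 relations. Both procedures were tested on simulated data. Genes were named by rule: all probes of Smr3a and Prol1, the caseins, the brightest members of each list, neighbours within 10 places and the 10 most alike. The members and lists were chosen with earlier results of these data known. Alternatives were other background treatment, filters, probe choice, centring, weights, genotype means removed, and arrays left out; scaling each salivary gene, removing genotype means for single genes and leaving out salivary genes that pass the intensity limit through the high group were added after seeing the data. No protein sequence was used here. The number of arrays limits the precision.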

Additional observations from a re-analysis of the deposited data

Results flagged for a closer look

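In 18 of the 76 groups of 5 or 6 tumours examined, a single tumour lay far from the others, by the ratio of its gap to the whole range of its group (limits 0.71 for 5 tumours and 0.625 for 6). Chance gives about 1 such group in 20, but the genes are not independent of each other, and Smr3a was picked with its spread known. Cst10, Dcpp2, Prpmp5, Amy1, Klk1, Klk1b21 and Klk1b5 were examined only for their likeness to Smr3a or Prol1 over these arrays. So were Chia1, Dnase1, Amy2a5, Cks1brt and Gpsm3, and the number is therefore not to be read against chance. PyMT/SIRT6 replicate 1 accounted for 15 of the 18 groups. The ratio was 0.840 for Smr3a on ILMN_2685073 (12.30 against 8.20 in the next tumour) and 0.937 on ILMN_3125207 (9.00 against 7.28). For Dcpp1, examined as one of the brightest salivary genes, it was 0.827. Salivary genes examined for their likeness gave 0.887 for Cst10, 0.934 for Dcpp2, 0.739 for Prpmp5 and 0.899 for Amy1. They also gave 0.800 for Klk1, 0.744 for Klk1b21 and 0.766 for Klk1b5. Genes outside the list that were named for their likeness gave 0.852 for Chia1, 0.925 for Dnase1, 0.884 for Amy2a5, 0.846 for Cks1brt and 0.794 for Gpsm3.

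In the PyMT group, replicate 6 stood apart for Mucl2 (ratio 0.786, 7.88 against 7.46) and for Cst10 (0.673, 8.73 against 7.68). PyMT replicate 3 stood apart on the low side for Scgb2b27 (0.661, 12.11 against 13.91). Prol1 itself was not among these groups on either probe.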

How the results depend on the processing

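No paired analysis was possible because replicate numbers follow deposit order only. Leaving out single arrays gave differences of −0.0841 to 1.14 for Smr3a (negative without PyMT/SIRT6 replicate 1) and 1.19 to 1.98 for Prol1. The r ranged from −0.147 to 0.0186 for Smr3a with Csn2 (above 0 without PyMT replicate 1), 0.118 to 0.531 for Prol1 with Csn2, 0.321 to 0.885 for Smr3a and 0.527 to 0.882 for Prol1 with the salivary mean, and 0.114 to 0.845 between the genes; the last 3 were lowest, and no longer under an unadjusted permutation p of 0.05, without PyMT/SIRT6 replicate 1. By Spearman, Smr3a had 0.409 with the salivary mean and 0.345 with Prol1, neither past the threshold. Without the 4 arrays high in muscle markers, which include that replicate, the values were 0.240, 0.598 (Prol1 with the salivary mean) and 0.148, none past the threshold with 7 arrays, and the Smr3a difference was 0.04. With genotype means removed Prol1 with Csn2 turned to −0.352, or to −0.114 without PyMT/SIRT6 replicate 1 as well. The cause was not tested. Features past the genotype threshold numbered 2, 1 to 3 without single arrays, 4 with normexp, 4 with array weights, 6 with all probes and 0 (436 at an unadjusted p under 0.05, limma) without the muscle-high arrays. The remaining alternatives kept directions and calls; the Prol1 difference was 2.57 with normexp and, with salivary genes scaled to SD 1 (chosen after seeing the data), r was 0.741 for Smr3a and 0.835 for Prol1. Dim probes, such as Prpmp5 and the second Smr3a probe, limit what small differences show.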

Other observations

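Milk genes other than caseins also varied between tumours. The iron-binding protein gene Ltf read 10.87 in PyMT replicate 3 and 13.51 to 14.99 elsewhere. The whey protein gene Wap, highest in PyMT replicate 1 at 13.51, had an r of −0.199 with Smr3a (permutation p = 0.514). Lalba, alpha-lactalbumin, had an r of 0.570 with Prol1 (permutation p = 0.0574, adjusted 0.203) and a rho of 0.718 (permutation p = 0.0162, adjusted 0.134). Its r was 0.639 without PyMT/SIRT6 replicate 1, 0.0685 in PyMT tumours and −0.00614 with genotype means removed. Its genotype difference was 0.88 ± 0.21 (limma adjusted p = 0.741). The mean of 18 milk and secretory genes other than caseins had an r of −0.253 with Smr3a, with a rho of −0.627 (permutation p = 0.0433, adjusted 0.202), and 0.0269 with Prol1. Folr1, a folate receptor gene on that list, reached at most 10.69 among PyMT tumours while the lowest PyMT/SIRT6 tumour read 10.72, and its rho with Prol1 was 0.727 (permutation p = 0.0136, adjusted 0.13).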
